A study of Homo sapiens with 3 samples.

Results

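The nonsense-mediated decay (NMD) core factors UPF1, UPF2, UPF3A, UPF3B, SMG1, SMG5, SMG6, SMG8 and SMG9 were described in the transcriptome of HEK293T cells. These 9 genes were chosen by name, by joining the transcript identifiers of the deposited tables to GENCODE symbols, and are 9 of the 61193 genes matched and of the 19926 protein-coding ones. HEK293T cells derive from human embryonic kidney and express the large T antigen of SV40. All 3 samples are untreated replicates of 1 condition, harvested 24 h after seeding, with 2 µg of total RNA put into each library. The paper calls them independent biological replicates made from RNA, whereas the labels name the molecule as genomic DNA. The study set them beside maps of i-motifs (iMs) and G-quadruplexes (G4s) in the same line, which were not analysed here. No treated group exists, so levels and their spread are described and no test between conditions was made.

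NMD removes mRNAs on which translation stops too early, and it also sets the level of many normal mRNAs. In the usual account, UPF1, an RNA helicase, is recruited when a ribosome terminates, and UPF2 links it to UPF3A or UPF3B, which bind the exon junction complex left by splicing. The kinase SMG1, held in check by SMG8 and SMG9, then phosphorylates UPF1. SMG6 cuts the mRNA near the stop codon as an endonuclease, and SMG5 binds phosphorylated UPF1 and brings in the decay machinery.

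The libraries were primed at the poly(A) tail (QuantSeq 3′ mRNA-seq), so the annotated 3′ end of each transcript is where reads should start. These ends are shown because the counts below are set beside how far other transcripts share them. Each line gives 30 bases at or near the end of a canonical transcript (GENCODE v44, the representative transcript of a gene), or of the retained-intron transcript UPF3A-212, 5′ to 3′ on the strand of the gene, with the poly(A) signal AATAAA in capitals.
SMG1: ttcagaaAATAAAggttcagtctcaaaaga
SMG5: agcatcacttAATAAAccccccaagcccaa
SMG9: AATAAAtgagccaatacatactctttctcc
UPF1: accaaatattAATAAAcagttttgacttca
UPF2: gccgatgctgcAATAAAgtgttgtaattta
UPF3A: AATAAAaattttgttaaagaagtactgaaa
UPF3B: cAATAAAtagtaacagcattcaagtgtgaa
SMG6: tccttAATAAAtttttagttatgaaacata
SMG8: ctAATAAAgattggttgttctagaaaagaa
UPF3A-212: tcaaaaaaccAATAAAattgatgtgacatg
On GRCh38, the window of SMG5 is chr1:156249224-156249253 on the minus strand, that of UPF1 is chr19:18868201-18868230 on the plus strand, and that of UPF3A-212 is chr13:114287588-114287617 on the plus strand. The search covered the last 40 bases of the transcript on its own strand, for AATAAA or else ATTAAA. All 9 canonical transcripts held AATAAA there, compared with 62.1% of the 19351 canonical protein-coding transcripts listed in the tables. In these 10 transcripts 13 to 28 bases lay between the signal and the annotated end. A match of this kind is a description of the sequence and not evidence that the site is used.

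The libraries held 6262175 to 8521624 counts, and the floor used for a gene without counts, 3 counts, equalled 0.352 to 0.479 CPM. CPM is the count of a gene rescaled to 1000000 counts per library. Without molecular identifiers, reads do not stand for separate molecules, so intervals and floors describe counting error alone. Mitochondrial genes took 9.59%, 5.70% and 25.8% of the counts in replicates 1, 2 and 3. Of the markers chosen for the cell line, LIN28B, an RNA-binding protein of embryonic cells, had 46.0, 52.3 and 24.1 TPM. KRT8 had a mean of 1.35 ± 0.433 TPM (SD, n = 3), VIM had 0 to 6 counts and KRT18 had 0 in every replicate. The low counts of VIM and KRT18 do not show absence, because other transcripts share their 3′ ends, as set out below. Of the markers of other cells, PTPRC and ALB had 0 counts and PECAM1 at most 2, whereas COL1A1, a fibroblast collagen, had 24.5 to 25.2 TPM.

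The 9 genes were counted very unequally. SMG5 had the highest level, SMG9, SMG1 and UPF3A followed, SMG6 and UPF2 were low, and UPF1, UPF3B and SMG8 had 3, 4 and 6 counts in all 3 libraries together. TPM is the count divided by transcript length and rescaled to 1000000 per library. A mean TPM of at least 1 was reached by 5 of the 9 genes, compared with 38.2% of all protein-coding genes. UPF1 and UPF3B had at most 3 counts in every replicate, as did 50.9% of protein-coding genes. Together the 9 genes had 107.4, 102.8 and 58.4 TPM, a mean of 89.5 ± 27.1 (SD, n = 3), from 2768, 2241 and 2250 counts. Reads of a 3′ library come from 1 end of the molecule, so CPM, which is not divided by length, is given beside TPM.

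**Figure D1:**
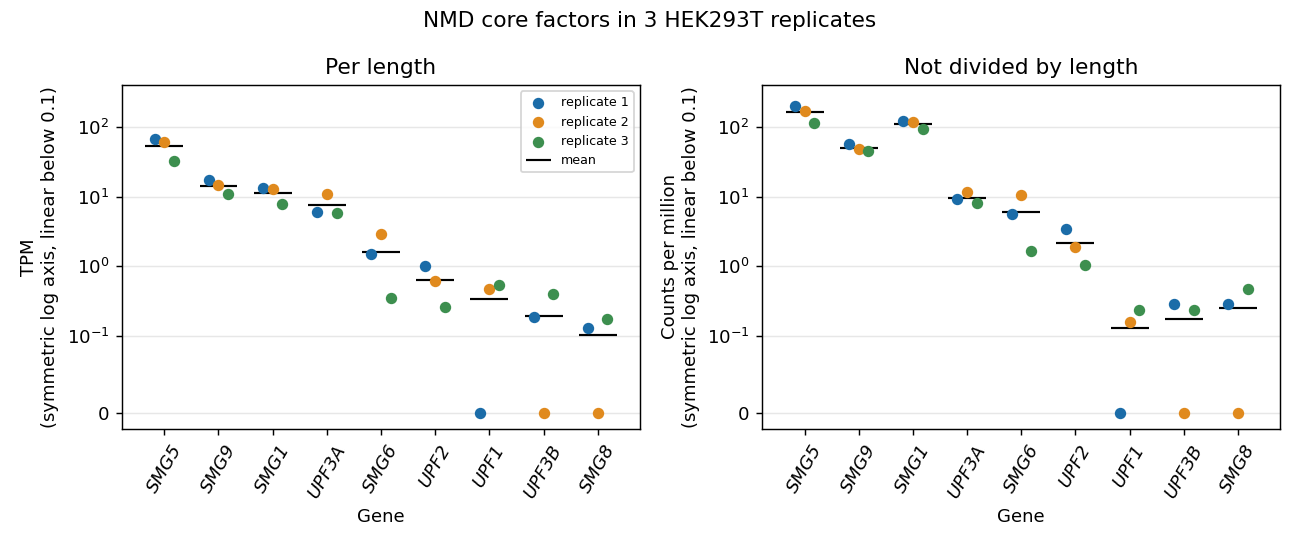
Level of each NMD core factor in 3 HEK293T replicates, as TPM (left) and as CPM (right) on symmetric log axes, with points for replicates and a line for their mean. SMG5 lay highest on both scales, and UPF1, UPF3B and SMG8 lay at or near 0 in every replicate.

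The kinase complex held both well counted and nearly uncounted genes. SMG1 (ENSG00000157106, chromosome 16, 18804860 to 18926408, minus strand), the kinase of UPF1, had 841, 725 and 785 counts in replicates 1, 2 and 3. Its level was 13.5, 12.8 and 7.84 TPM, a mean of 11.4 ± 3.06 (SD, n = 3), and 109.2 ± 15.0 CPM. Replicate 3 was lowest on both scales. SMG1 has the longest canonical transcript of the 9, with 16115 bases in the deposited tables, and its place differed between scales, from above 81.7% of protein-coding genes in TPM to above 91.9% in CPM.
SMG9 (ENSG00000105771, chromosome 19, 43727983 to 43754962, minus strand), a regulator of SMG1, had 394, 306 and 390 counts and 17.5, 14.7 and 10.9 TPM. Its mean was 14.4 ± 3.31 TPM (SD, n = 3) and 50.3 ± 5.32 CPM. SMG9 was above SMG1 in TPM in 3 of 3 replicates, by a ratio of means of 1.27, but their ranges overlapped, and in CPM the order was turned, with SMG1 2.17 times SMG9 and no overlap. The order of the pair therefore depended on whether counts were divided by length.
SMG8 (ENSG00000167447, chromosome 17, 59209400 to 59215239, plus strand), the other regulator of the kinase, had 2, 0 and 4 counts. The 6 counts equal 0.275 CPM over the pooled libraries (exact 95% Poisson interval 0.101 to 0.599). At this depth SMG8 was at or just above the floor, and its level relative to SMG1 and SMG9 rests on these few counts.

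The UPF1 and UPF2 genes had few counts. UPF1 (ENSG00000005007, chromosome 19, 18831959 to 18868230, plus strand), the helicase at the centre of the pathway, had 0, 1 and 2 counts, all on ENST00000601981, a transcript without a defined coding sequence. Its canonical transcript had 0 counts in every replicate, which does not show absence. The 3 counts of the gene equal 0.138 CPM over the pooled libraries (exact 95% Poisson interval 0.0284 to 0.402). ENST00000601981 measures 556 bases in the deposited tables and 4990 in GENCODE v44, so the TPM of UPF1, 0, 0.469 and 0.539, rests on the shorter length.
UPF2 (ENSG00000151461, chromosome 10, 11920022 to 12043170, minus strand), the link between UPF1 and UPF3 proteins, had 24, 12 and 9 counts, all on its canonical transcript. Its level was 1.02, 0.606 and 0.261 TPM, a mean of 0.630 ± 0.382 (SD, n = 3). Replicate 1 was highest and only there did UPF2 pass 1 TPM. Set against nuclear counts, its highest replicate was 2.66 times its lowest, and 36.1% of the protein-coding genes with a mean of 10 to 20 counts had a ratio at least as large.

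The paralogs UPF3A and UPF3B stood far apart in counts summed per gene, and the canonical transcripts of both had too few counts to be compared. UPF3A (ENSG00000169062, chromosome 13, 114281601 to 114305817, plus strand) had 65, 72 and 68 counts, and its level was 5.91, 10.8 and 5.76 TPM, a mean of 7.49 ± 2.87 (SD, n = 3). Replicate 2 was highest in TPM, and 3.70 of its 10.8 TPM came from 7 counts on UPF3A-209, a transcript of 494 bases. Scaled to nuclear counts, UPF3A had a coefficient of variation of 9.13% where counting alone gives 12.1%, so its replicates differed by less than counting error. UPF3B (ENSG00000125351, chromosome X, 119834022 to 119852998, minus strand), the paralog usually described as the more active one in NMD, had 2, 0 and 2 counts.
On the log2(TPM + 1) scale the difference of UPF3B minus UPF3A was -2.54, -3.56 and -2.27, a mean of -2.79 ± 0.68 (SD, n = 3). UPF3B was lower in 3 of 3 replicates. In counts, 205 against 4 is a ratio of 51.2, with an exact 95% interval of 19.7 to 189.9.
Of the 205 counts of UPF3A, 188 (91.7%, exact 95% binomial interval 87.1% to 95.1%) fell on UPF3A-212, a retained-intron transcript of 2423 bases that ends inside the gene, and the canonical UPF3A-202 had 0 in every replicate. UPF3A-212 had 65, 64 and 59 counts, or 5.91, 6.89 and 3.65 TPM, with replicate 3 lowest. Counts alone do not show that this transcript was made, and where the reads lay within it was not examined. The end of UPF3A-212 has the AATAAA shown above. Of the 20 genome bases after that end 6 are A, compared with a median of 3 at canonical protein-coding ends. Without the retained-intron transcripts UPF3A had 15 counts, 3.75 times the 4 counts of all UPF3B transcripts, with an interval of 1.19 to 15.5. Of these 15 counts, 13 lay on UPF3A-209, and 2 of the 4 of UPF3B lay on its retained-intron transcript. This ratio therefore does not compare like sets of transcripts. The canonical transcript of UPF3B had 2, 0 and 0 counts, against 0 in every replicate for that of UPF3A, so no ratio was drawn from them.

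**Figure D2:**
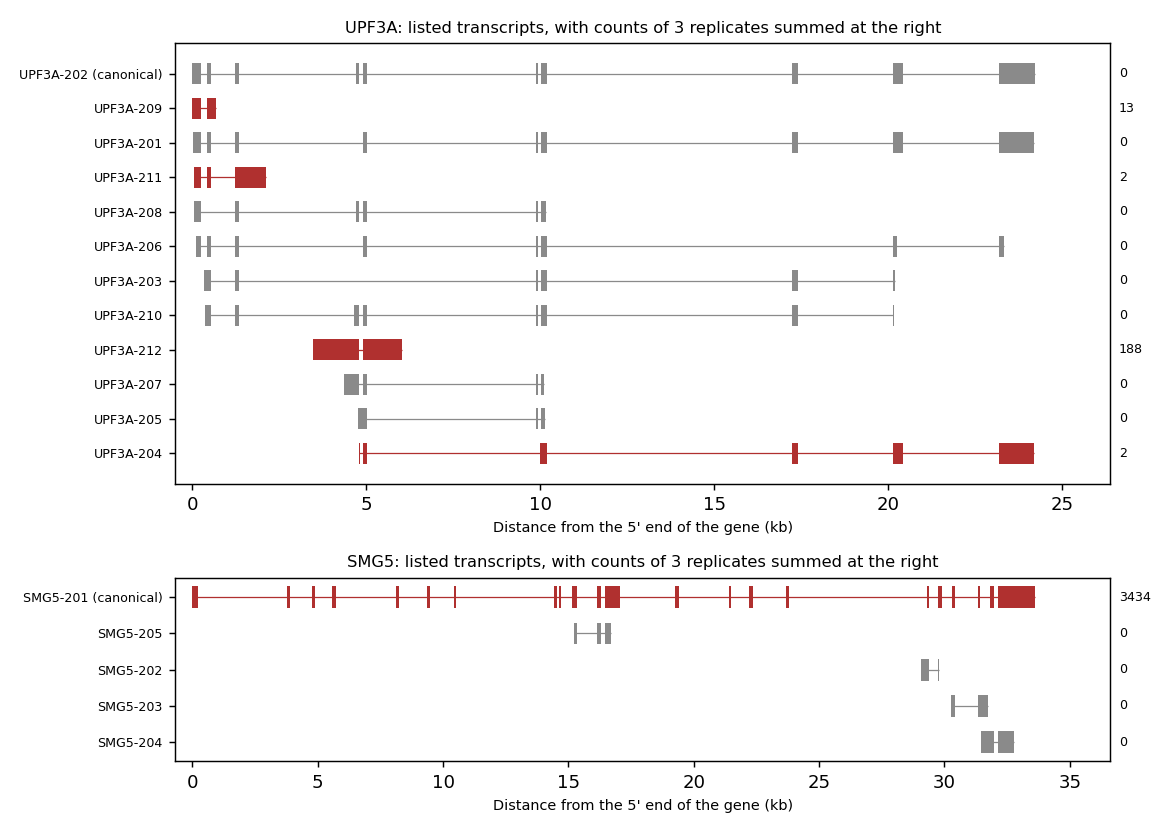
Listed transcripts of UPF3A (12, top) and SMG5 (5, bottom), drawn from the 5′ end of each gene in kb with exons as boxes and the counts of 3 replicates summed at the right. Transcripts with counts are red. In UPF3A 188 counts lie on the retained-intron transcript UPF3A-212 and 0 on the canonical transcript, whereas all 3434 counts of SMG5 lie on its canonical transcript.

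The effectors of decay also differed. SMG5 (ENSG00000198952, chromosome 1, 156249224 to 156282825, minus strand), the adaptor that binds phosphorylated UPF1, had 1400, 1058 and 976 counts. Its level was 67.7, 60.5 and 32.1 TPM, a mean of 53.4 ± 18.8 (SD, n = 3), above 92.6% of protein-coding genes, and 161.0 ± 43.0 CPM. The lowest replicate of SMG5 lay above the highest of the other 8 genes in TPM, and in CPM it overlapped SMG1, with 114.5 in its lowest replicate against 119.8 in the highest of SMG1.
SMG6 (ENSG00000070366, chromosome 17, 2059839 to 2303785, minus strand), the endonuclease, had 40, 67 and 14 counts and 1.48, 2.93 and 0.351 TPM, a mean of 1.58 ± 1.29 (SD, n = 3). It passed 1 TPM in replicates 1 and 2 only, and without replicate 2 its mean was 0.913 TPM. The replicates of SMG6 differed by more than counting error. In CPM of nuclear counts it had 6.30, 11.3 and 2.22, a coefficient of variation of 69.1% where counting alone gives 15.7%. The highest was 5.12 times the lowest, a ratio reached by 1.91% of the 2196 protein-coding genes with a mean of 20 to 100 counts. On the opposite strand a transcript of HIC1, which encodes a transcriptional repressor, covers 1780 exonic bases of the canonical SMG6 transcript and had 7, 5 and 5 counts. The lncRNA gene ENSG00000236838, also opposite SMG6, covers 0 bases of that transcript and had 0, 0 and 1. Opposite SMG1, the lncRNA gene ENSG00000260017 covers 171 bases and had 16, 8 and 19 counts. The strand setting of the counting is not given in the sources used here, so reads of overlapping genes cannot be told apart.

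In order of mean TPM, the genes ran SMG5, SMG9, SMG1, UPF3A, SMG6, UPF2, UPF1, UPF3B and SMG8. Of these neighbours, SMG5 with SMG9 and UPF3A with SMG6 had TPM ranges that did not overlap. SMG9 with SMG1, SMG1 with UPF3A and SMG6 with UPF2 kept their order in 3 of 3 replicates but overlapped in range. UPF2 with UPF1, UPF1 with UPF3B and UPF3B with SMG8 overlapped in range, and the first of each pair was higher in 2 of 3 replicates. UPF2 nonetheless lay above SMG8 in every replicate, with 0.261 TPM in its lowest against 0.175 in the highest of SMG8. In order of mean CPM, the genes ran SMG5, SMG1, SMG9, UPF3A, SMG6, UPF2, SMG8, UPF3B and UPF1. On that scale SMG1 with SMG9, SMG9 with UPF3A and UPF2 with SMG8 were the neighbours without overlap. UPF3A and SMG6 overlapped in CPM, with 7.98 in the lowest replicate of UPF3A against 10.7 in the highest of SMG6. With 3 replicates of 1 condition no test of these orders was made.

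The counts of the members moved with how much of their 3′ end is shared. Sharing was measured over the final 300 exonic bases of each canonical transcript, by counting those absent from every other transcript listed on that strand. The number was 300 for SMG1, SMG5 and SMG9, 9 for UPF3A, 4 for UPF3B and 0 for UPF1, UPF2, SMG6 and SMG8. The 3 genes with wholly unshared ends had means of 360.3 to 1145 counts per library on the canonical transcript, and the other 6 had 0 to 40.3. These 3 transcripts held 6832 of the 7259 counts of all members, 94.1%. The shared ends were covered by 1 to 4 other listed transcripts. SMG8 also shares 422 exonic bases with ENSG00000265303, a protein-coding gene on its strand that had 0 counts.
Over all protein-coding genes with a canonical transcript listed, 39.3% had wholly unshared ends and 50.6% had fewer than 10 such bases. Of the first class, 53.4% reached a mean of 1 TPM, and of the second 26.1%. The median count on the canonical transcript was 16.2 in the first class and 0 in the second. The canonical transcripts of ACTB and GAPDH, genes that nearly every cell uses, had 0 unshared bases and 0 counts. Among the markers of the cell line, VIM had 0 unshared bases, KRT18 had 6 and LIN28B had 300. The part of such sharing in the low counts of VIM and KRT18 was not tested. The part of this sharing in the levels of the members was not tested. How the counting treated reads on several transcripts is not given in the sources used here, so for members with shared ends a low mRNA level and uncounted shared reads cannot be told apart.
SMG6 and UPF2 had counts on canonical transcripts whose unshared bases lie far from the 3′ end. The nearest unshared base is 3248 exonic bases from it in SMG6, and the 55 unshared bases of UPF2 begin 5113 bases from it. Words of 31 bases from the last 300 bases of each canonical transcript were also looked for in the transcripts of all other genes. For SMG8 98.5% occurred in ENSG00000265303, and for the other 8 members 0%.

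**Figure D3:**
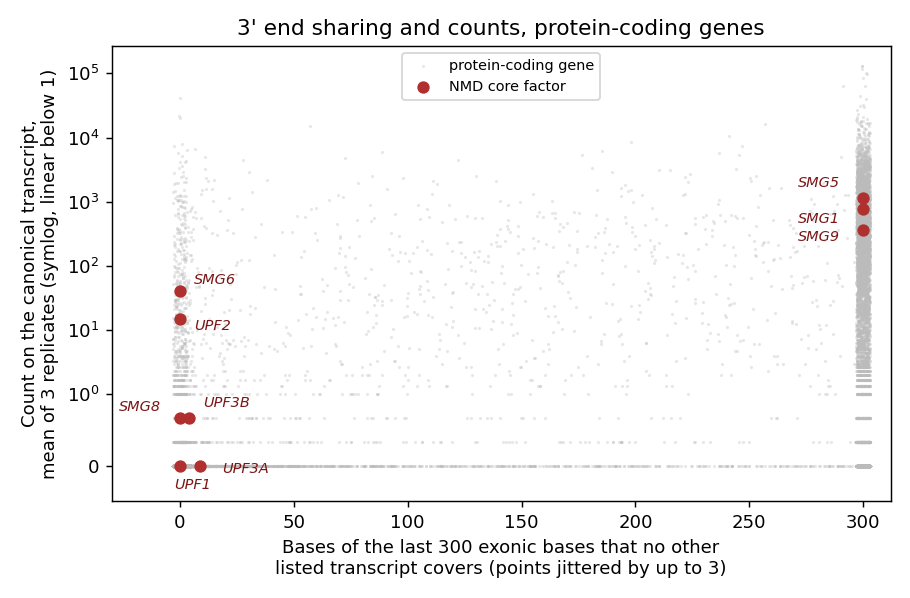
Mean count on the canonical transcript (3 replicates, symmetric log axis) against how many of its final 300 exonic bases are found in no other transcript listed, for protein-coding genes (grey) and the NMD core factors (red). SMG1, SMG5 and SMG9 lie at 300 bases with 360.3 to 1145 counts, and the other 6 lie at 0 to 9 bases with 0 to 40.3 counts.

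The 9 genes have 92 listed transcripts, and 23 of these had at least 1 count. Of the 22 without any unshared base, only the canonical transcript of SMG8 had counts, and it had 2. Transcripts annotated as protein-coding held 96.8% of the member counts, and retained-intron transcripts held 3.04% (exact 95% binomial interval 2.66% to 3.47%), compared with 1.03% over all protein-coding genes. Of the 221 retained-intron counts, 190 were those of UPF3A. Transcripts of the class named for NMD itself, with a stop codon placed so that decay is predicted, number 3 among the members, in SMG1, SMG8 and SMG9. They held 3 of 7259 counts, 0.0413% (exact 95% binomial interval 0.00852% to 0.121%), all on the transcript of SMG9, while such transcripts held 0.363% of the counts of all protein-coding genes. In replicates 1, 2 and 3 they had 2, 1 and 0 counts. This class makes up 3 of the 92 transcripts listed for the members and 16043 of the 149449 listed for all protein-coding genes. The transcripts of this class in SMG1 and SMG8 have 0 unshared bases, and that of SMG9 has 434. The part of these differences in the lower share was not tested.

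**Figure D4:**
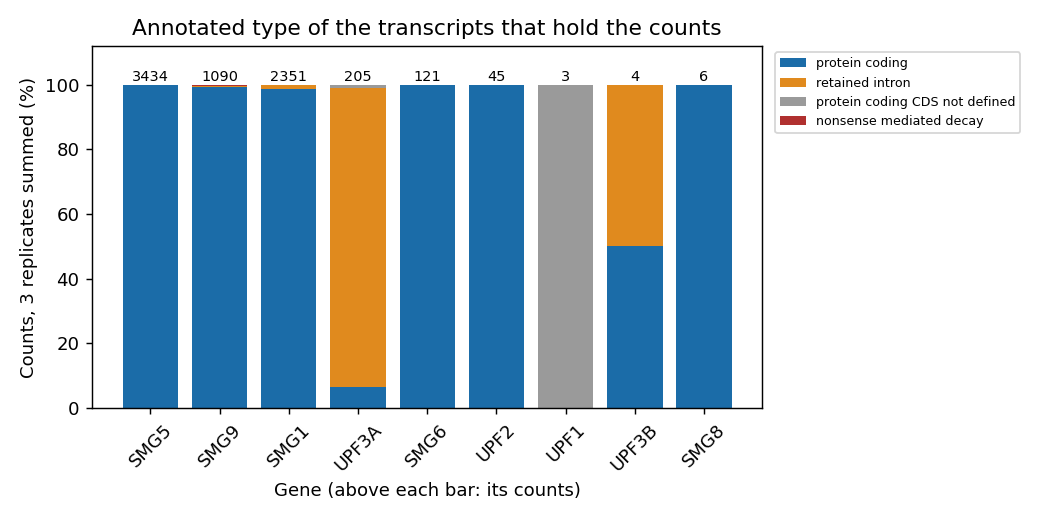
Share of the counts of each NMD core factor, 3 replicates summed, by annotated transcript type, with the number of counts above each bar. Protein-coding transcripts hold 98.8% or more of the counts of SMG5, SMG9, SMG1, SMG6, UPF2 and SMG8, and retained-intron transcripts hold 92.7% of those of UPF3A.

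Replicate 3, with its larger mitochondrial share, was lowest in TPM for all 4 members with at least 50 counts in every library (SMG1, SMG5, SMG9 and UPF3A). The same held for 83.9% of the nuclear protein-coding genes at that depth. In CPM of nuclear counts, only SMG5 of the 4 was lowest in replicate 3, as were 36.8% of those genes. SMG5 then had 220.6, 179.2 and 154.4, so its replicates spread over a ratio of 1.43 with a coefficient of variation of 18.1% where counting alone gives 2.96%, whereas SMG1 had 132.5, 122.8 and 124.2, a ratio of 1.08. The part of the mitochondrial share in these values was not tested.

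Partners of the core factors were taken from lists written from general knowledge, and 17 of 25 genes in 4 lists had a mean of at least 1 TPM, compared with 38.2% of protein-coding genes. In the exon junction complex, which marks spliced junctions, 4 of 6 genes passed. RBM8A, a core subunit also called Y14, had 99.4 ± 30.7 TPM, RNPS1 had 63.1 ± 11.7 and MAGOHB had 11.1 ± 0.342 (SD, n = 3). MAGOH and CASC3 had at most 2 counts in every replicate.
Of the other NMD cofactors 3 of 5 passed. RUVBL1, an ATPase that acts on SMG1, had 401, 685 and 264 counts and 52.1 ± 36.4 TPM (SD, n = 3), a wide spread. DHX34, a helicase that binds UPF1, had 21.9 ± 9.40 TPM, NBAS had 3.78 ± 0.735 (SD, n = 3), and PNRC2 had 0 counts. Among the factors of termination and poly(A) binding 4 of 5 passed. GSPT1, the release factor eRF3a, had 110.5, 118.7 and 63.1 TPM, its paralog GSPT2 had 28.8 ± 9.34 and PABPC1 had 2.44 ± 0.206 (SD, n = 3), while ETF1, the release factor eRF1, had 1, 0 and 0 counts. Of the decapping, deadenylation and exonuclease genes 6 of 9 passed. CNOT7, a deadenylase, had 106.8 ± 25.1 TPM, DCP2, the decapping enzyme, had 69.2 ± 9.88 and DCP1A, its activator, had 58.1 ± 16.0 (SD, n = 3). EDC3, EDC4 and CNOT8 had 0 counts.
The same measure of the 3′ end was available for all 25 genes. All 9 with wholly unshared ends had a mean of at least 1 TPM, compared with 53.4% of all protein-coding genes of that class. So did 5 of the 9 with fewer than 10 unshared bases, compared with 26.1% of all protein-coding genes of that class. The exonuclease gene XRN1 was among these 5, with 0 unshared bases and with 707, 606 and 772 counts summed over its transcripts. A shared end of the canonical transcript thus did not always go with a low count of the gene. The 7 genes with at most 3 counts in every replicate had few unshared bases. The number was 0 for ETF1, EDC4 and CNOT8, 7 for CASC3, 16 for PNRC2, 17 for EDC3 and 26 for MAGOH. Their low counts therefore do not show absence. For PABPC1, with 0 unshared bases and 8, 6 and 12 counts, low RNA and uncounted shared reads cannot be told apart.

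**Figure D5:**
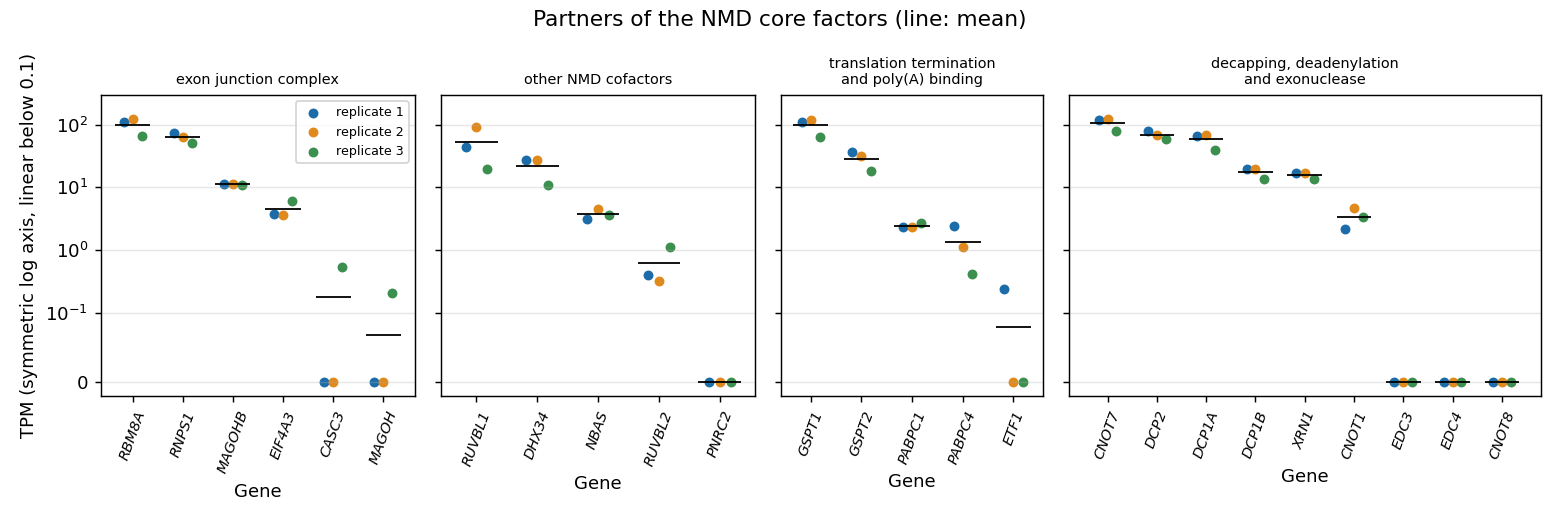
TPM of the partners of the NMD core factors in 3 HEK293T replicates on a symmetric log axis, with points for replicates and a line for the mean, in 4 lists. RBM8A, GSPT1 and CNOT7 lie highest in their lists, at means of 97.4 to 106.8 TPM, and PNRC2, EDC3, EDC4 and CNOT8 lie at 0.

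Because the study concerns iMs at promoters, the promoters of the members were searched for sequences that could form them. RefSeq windows on GRCh38.p14, from 250 bases before to 50 after the start, were available for 8 of the 9 members, all at the start of the canonical transcript. The pattern was at least 4 tracts of 3 or more Cs with loops of 0 to 7 bases, or the same with Gs, so that both strands were covered. A C pattern on the strand of the gene was found for SMG6 and SMG9, and a G pattern for SMG1, SMG6, UPF2 and UPF3B. That is 5 of 8 members with either, compared with 26.8% of all 35116 RefSeq windows. For each member only the window nearest the canonical start was kept, from 15 in all, whereas the 35116 can hold several per gene. Comparisons of members with all windows are therefore not like for like. UPF1, UPF3A and SMG5 had none in this window. The C patterns are shown with their tracts in capitals.
SMG6: CCCgCCCgCCCCaCCC
SMG9: CCCCaCCCtcaaCCCCCC
The match of SMG6 is chr17:2303926-2303941 and begins 156 bases before the start, and that of SMG9 is chr19:43755080-43755097 and begins 135 bases before it, both on the minus strand. The windows of the members had a median GC content of 71.8%, and all windows a median of 58.7%. These matches are descriptions of sequence, and no folding was measured in the files used here.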

How the data were processed

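RNA-seq was performed on 3 replicates of HEK293T cells. Per the labels, the submitters' processing notes name Trimmomatic 0.38.0, HISAT2 2.2.1 and featureCounts 2.2.1 with the hg38 genome. The options for strand and for reads on several transcripts, and the annotation release, are not given in the sources used here. The authors deposited, for each of 247541 Ensembl transcripts, whole-number counts without normalization, the transcript length in bases and TPM, which was checked by recomputing it from count and length. Transcripts were matched without version to GENCODE v44 on GRCh38, which placed 223558 of them in 61193 genes. The lengths of 6 of the 92 member transcripts differ from v44. Count and TPM were summed per gene, and CPM uses all counts of a library, or nuclear counts where stated. SDs are over 3 replicates. Scripts were tested on simulated data. Members, lists and the rule for named genes (all members, and of each list the count past 1 TPM, up to 3 highest genes and those at 3 or fewer counts) were chosen with earlier results of these data known, and XRN1, ATF4, ACTB, GAPDH and the other pseudogenes with counts were named after their values were seen. A further gene of these lists is not reported here and enters no count of them. Alternatives were other thresholds, transcript sets, scalings and pseudocounts, and each replicate left out. Tables were computed in pandas 2.3.3, numpy 2.4.6 and scipy 1.17.1 under Python 3.11.15, and figures drawn in matplotlib 3.10.9.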

Additional observations from a re-analysis of the deposited data

How the results depend on the processing

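The number of members at a mean of 1 TPM, 5, was 9 with a mean above 0 and 3 with a mean of at least 10, and 4 to 5 with each replicate left out. It was 4 with 1 TPM in every replicate or canonical transcripts alone, and 6 at 1 CPM. The summed level of 89.5 TPM became 121.7 once mitochondrial genes were removed before rescaling, and 80.6 to 105.1 with each replicate left out. The log2 ratio of UPF3B to UPF3A, -2.79, was -4.90 with a pseudocount of 0.1, -1.07 without UPF3A-212 (an alternative added after seeing the data) and 0.082 with canonical transcripts alone. This last value has the opposite sign but rests on 2 counts of UPF3B in 1 replicate against 0 of UPF3A, and with a pseudocount of 1 it could not lie far from 0, so it shows nothing about the direction. It was -3.05 to -2.41 with each replicate left out. The share of member counts on canonical transcripts, 96.5%, was 64.6% as a mean over members, which gives genes with few counts the same weight as SMG5. The place of a member among protein-coding genes moved by more than its spread between replicates for 7 of 9 members with canonical transcripts alone and for 5 of 9 without division by length, and for 0 of 9 under the other alternatives. Except where stated, the cause was not tested. UPF1, UPF3B and SMG8 had at most 4 counts in any replicate, and depth, shared 3′ ends and low mRNA cannot be told apart for them. No paired analysis was possible because only 1 condition was sampled.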

Other observations

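Transcripts known as natural substrates of NMD were also measured, since they are the genes on which the core factors act. Of 7 such genes, 2 had a mean of at least 1 TPM, compared with 38.2% of all protein-coding genes. The 7 include non-coding genes, so this comparison is not like for like. GAS5, a non-coding host of small nucleolar RNAs, had 58, 99 and 74 counts and 15.4 ± 7.46 TPM (SD, n = 3), and TBL2, a protein of the endoplasmic reticulum, had 205, 169 and 203 counts and 9.29 ± 1.72 TPM (SD, n = 3). The stress genes GADD45A and GADD45B and the host gene SNHG12 had at most 2 counts in every replicate, ATF4, a stress transcription factor, had 0, 4 and 5, and ZFAS1 had 1, 3 and 5. Unshared bases at the canonical 3′ end numbered 300 in TBL2 and ZFAS1, 1 in GADD45A and 0 in GADD45B and SNHG12. For GADD45A, GADD45B and SNHG12, low RNA and uncounted shared reads cannot be told apart. With a single condition and NMD left intact, these levels say nothing about how strongly NMD acts on them.

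SMG1 and UPF3A have annotated pseudogenes, with which they share sequence. SMG1P2, on chromosome 16, had 23, 28 and 27 counts, and 58.8% of its 31-base words occur in transcripts of SMG1, whereas 0% of the words in the last 300 bases of the canonical SMG1 transcript occur in any other gene. One annotated copy of SMG1P7 (ENSG00000261556) had 11, 3 and 8 counts and the other (ENSG00000291263) 3, 2 and 5, and the further SMG1P genes listed had at most 2 in any replicate. UPF3AP3, on chromosome 9, had 19, 13 and 42 counts, or 5.44, 4.41 and 8.19 TPM, and was thus near the parent gene in TPM, although only 15.7% of its words occur in UPF3A. UPF3AP1 and UPF3AP2, with 73.0% and 70.9% of their words in UPF3A, had at most 4 counts in any replicate. The part of such shared sequence in the counts was not tested.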
